A study of Mus musculus with 2 samples.

Results

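Sertoli transcripts in the wild-type (WT) testis were carried by 432 barcodes out of 5407 WT barcodes with at least 500 detected genes, a share of 7.99% (7.28% to 8.74%). A barcode is the tag of 1 droplet and usually stands for 1 cell, and a UMI (unique molecular identifier) stands for 1 captured transcript. A barcode was a member if Defb45, Serpina3a, Cst9, Defb36, Rhox8 and Wfdc10 together had at least 3 UMIs and at least 0.15% of its UMIs. The members were split at 4000 UMIs into 38 deep and 394 shallow barcodes. The data are droplet single-cell RNA counts from disaggregated testes of mice aged 55 days, with 1 WT (Rad21l+/+) library and 1 RAD21L KO (Rad21l-/-) library. RAD21L is a cohesin subunit of meiosis. The labels do not say how many mice gave each library. The deposited matrices held 5415 WT barcodes with 33096309 UMIs and 7118 KO barcodes with 28001992 UMIs. Each genotype has a single library and so no replicate, no test was run, and every difference is one between barcodes of these libraries. Ranges in parentheses after a value are exact 95% intervals that cover counting error only: Clopper-Pearson for shares, Poisson for levels and conditional binomial for ratios.

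Sertoli cells are the somatic cells that line the seminiferous tubule and nurse the germ cells through meiosis and spermatid maturation. They hold the germ cells in deep folds of their cytoplasm, seal the tubule with the blood-testis barrier, secrete carrier proteins and hormones, supply lactate, and take up the residual cytoplasm that spermatids shed. Elongating spermatids replace their histones with transition proteins and then protamines, and store the transcripts of these proteins in bulk before translation. In a normal adult testis, Sertoli cells are outnumbered by germ cells.

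The 6 rule genes chose the members, so their values are a description. The deep members had 7 to 85 rule UMIs with a median of 55, and the shallow members 3 to 30 with a median of 5. As a share of UMIs this was 0.168% to 0.860% with a median of 0.568% in deep members, and 0.152% to 1.24% with a median of 0.352% in shallow members. All 38 deep members had at least 4 of the 6 genes detected, while 34 shallow members had 1 and none had all 6. Of the shallow members, 99 passed with exactly 3 rule UMIs. The highest share outside the rule among barcodes with at least 3 rule UMIs was 0.149% at shallow depth and 0.146% at deep depth. A further 93 shallow barcodes had at least 0.15% but only 1 or 2 rule UMIs and are not members. The members held 2.84% of the UMIs of the WT library and 67.4% of its rule gene UMIs.

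The split at 4000 UMIs sets the depth groups apart. The deep members had 4166 to 16986 UMIs with a median of 9647.5, and 4343.5 detected genes at the median. The shallow members had 704 to 3336 UMIs with a median of 1399.5, and 969.5 detected genes at the median. No member lay between 3336 and 4166 UMIs, and 6 lay between 3000 and 5000 UMIs. The other WT barcodes with at least 500 genes numbered 1848 at deep and 3127 at shallow depth, the shallow ones with a median of 1714 UMIs. There were 14 barcode sequences shared by the 2 libraries, 2 of them among the WT members.

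Of the deep members, 2 stood apart by their spermatid transcripts. One had 12.6% of its 16986 UMIs from a list of 20 elongating spermatid genes, with 1.73% from the 51 Sertoli genes described further on and 147 UMIs of the nuclear RNA Malat1. The other had 17.1% among 4166 UMIs, with 0.240% from the Sertoli genes, no Malat1 UMI and 1525 detected genes. The remaining 36 deep members ranged from 0.457% to 2.59%. Spermatid results are given with and without these 2 barcodes, which were chosen after their values were seen. Doublets were neither called nor removed, and the part of droplets with more than 1 cell was not tested.

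**Figure D1:**
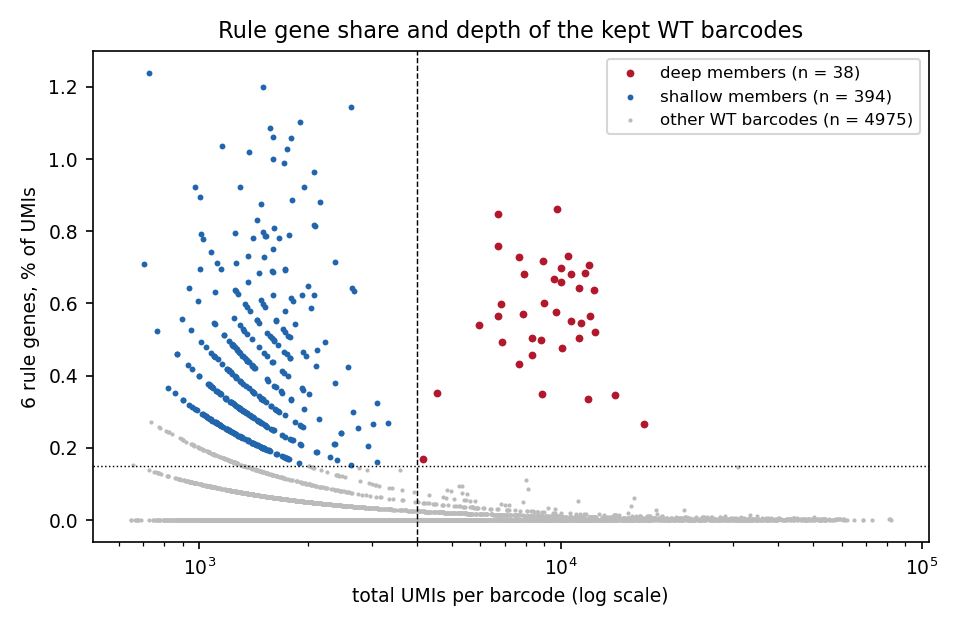
Share of UMIs from the 6 rule genes (vertical axis, percent) against total UMIs per barcode (horizontal axis, log scale) for the WT barcodes with at least 500 genes, with the split at 4000 UMIs (dashed) and the minimum share of 0.15% (dotted). The 38 deep members lie right of the dashed line and the 394 shallow members left of it, with no member between 3336 and 4166 UMIs, and the stripes at shallow depth are whole numbers of rule UMIs.

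Cst9, a cystatin-family gene, gave about as much of the rule gene UMIs in deep as in shallow members, with 1054 of 2036 UMIs (51.8%) in deep and 1195 of 2390 UMIs (50.0%) in shallow members. Defb36 and Defb45 code for beta-defensins, small secreted peptides, and Wfdc10 for a secreted protein with a whey acidic protein domain. Defb36 had 332 UMIs in deep and 373 in shallow members, Defb45 had 92 and 100, and Wfdc10 had 194 in deep and 281 in shallow members. Rhox8, a homeobox gene on the X chromosome, had 328 UMIs in deep and 393 in shallow members, and Serpina3a, a serine protease inhibitor gene on chromosome 12, had 36 in deep and 48 in shallow members. The other 4 lie on chromosome 2. RefSeq promoter windows (build GRCm38.p6, 250 bases before to 50 after the start) were found for 5 of the 6 genes. Those of Defb45 and Defb36, on opposite strands with 7341 bases between the windows, are shown as the pair of beta-defensin genes in the rule, and that of Wfdc10 as the only one with a motif match. Capitals mark 2 motifs searched on both strands. The SOX motif is AACAAT, or ATTGTT on the other strand. The GATA motif is AGATAA, or TTATCT on the other strand.
Defb45 (chr2:152596436-152596735, minus strand): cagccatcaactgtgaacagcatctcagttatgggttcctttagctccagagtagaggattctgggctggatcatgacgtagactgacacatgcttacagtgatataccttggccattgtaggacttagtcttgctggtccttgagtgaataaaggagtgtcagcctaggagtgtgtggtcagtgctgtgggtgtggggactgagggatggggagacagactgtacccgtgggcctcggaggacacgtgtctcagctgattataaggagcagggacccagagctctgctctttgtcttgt
Defb36 (chr2:152604077-152604376, plus strand): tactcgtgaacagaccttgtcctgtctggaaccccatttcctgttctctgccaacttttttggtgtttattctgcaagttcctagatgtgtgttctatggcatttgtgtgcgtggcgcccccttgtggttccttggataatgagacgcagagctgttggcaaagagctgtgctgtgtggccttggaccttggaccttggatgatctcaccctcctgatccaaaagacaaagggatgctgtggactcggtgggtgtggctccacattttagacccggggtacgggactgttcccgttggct
Wfdc10 (chr2:164655796-164656095, plus strand): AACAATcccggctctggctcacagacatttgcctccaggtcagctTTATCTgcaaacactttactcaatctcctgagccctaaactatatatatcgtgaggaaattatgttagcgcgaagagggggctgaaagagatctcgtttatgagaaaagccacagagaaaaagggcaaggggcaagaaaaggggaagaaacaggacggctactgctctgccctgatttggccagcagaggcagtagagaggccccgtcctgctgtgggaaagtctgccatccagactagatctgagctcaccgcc
The Wfdc10 window held each motif 1 time and without overlap, and the other 4 windows held neither. Of all 32851 promoter windows of this length, 10.7% held the SOX motif and 11.2% the GATA motif. These matches describe letters in the window only.

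Sertoli genes that the rule did not use were checked with 51 genes in 3 lists, of regulators, secreted products and junction genes. They made up 2.96% (2.90% to 3.01%) of the summed UMIs of deep members and 1.05% (1.03% to 1.08%) of those of shallow members. The other WT barcodes had 0.0323% (0.0316% to 0.0330%) at deep depth and 0.120% (0.118% to 0.123%) at shallow depth. Per barcode, the deep members ranged from 0.240% to 3.79% with a median of 3.02%, and the shallow members from 0% to 3.81% with a median of 0.953%. Without the 2 barcodes that stood apart the deep members ranged from 1.95% to 3.79%. A share of at least 2% was found in 35 of 38 deep members, in 32 of 394 shallow members, in 0 of 1848 other deep barcodes and in 1 of 3127 other shallow barcodes. Against the other deep WT barcodes, all 42 genes measured were at least 2-fold higher in deep members, where 50.1% of all genes were. Counts under 3 were set to 3 for this, so the 50.1% can take in genes near 0 in deep members. Sall4, with 0 UMIs in deep members and 73 in the other deep barcodes, had a ratio of 2.99 with that floor. By their shares, Sertoli markers were present at both depths. Their share was lower in the shallow members, which are not called Sertoli cells here.

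The shallow members carried Sertoli genes at 8.77 times (8.47 to 9.07) the share in the other shallow WT barcodes. Of the 40 list genes with at least 20 UMIs in both sums together, 36 were at least 2-fold higher, where 11.9% of all 14899 genes so measured were. Tsx, a testis-specific X-linked gene, had 415 CPM (UMIs per 1000000 UMIs) in shallow members and 25.6 CPM in the other shallow barcodes, a ratio of 16.2 (13.1 to 19.97). Clu, the secreted chaperone clusterin, had 2525 and 247 CPM in the same order, a ratio of 10.2 (9.51 to 11.02). Ctsl, the lysosomal protease cathepsin L, had 1483 CPM in shallow members and 132 CPM in the other shallow barcodes, and Cst12, another cystatin gene, had 1034 and 79.3 CPM. Sox9, the transcription factor of Sertoli fate, had 42 UMIs and 72.6 CPM in shallow members, against 73 UMIs and 12.4 CPM in the other shallow barcodes, a ratio of 5.86 (3.91 to 8.68). The genes under 2-fold were Vcl, Tjp1, Cdh2 and Dmrt1, and Tjp1, a tight junction scaffold, had 81.2 CPM in shallow members and 48.7 CPM in the other shallow barcodes. Outside the lists, Ptgds, a prostaglandin D synthase, had 408 CPM in shallow members and 27.0 CPM in the other shallow barcodes, and Gsta4, a glutathione transferase, had 277 and 19.4 CPM. At an equal depth of 1000 UMIs per barcode, Clu was detected in 97.4% of deep members, 72.7% of shallow members, 4.55% of other deep and 19.0% of other shallow barcodes, with 20 shallow members and 169 other shallow barcodes left out as too shallow. Without thinning the median depths were 9647.5, 1399.5, 8816 and 1714 UMIs in that order of groups.

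Between the depths, the 51 genes were 2.80 times (2.72 to 2.89) higher in deep than in shallow members. Of 40 genes measured, 35 were at least 2-fold higher in deep members and none was 2-fold lower, with a median log2 ratio of 1.86. Without the 2 barcodes that stood apart the ratio was 2.89 (2.80 to 2.99). Among all 7861 genes measured, 33.6% were at least 2-fold higher and 25.8% at least 2-fold lower, and the median log2 ratio was 0.27. The 6 rule genes differed less, by 1.37 times (1.29 to 1.45), but the rule set a least share for them at both depths.

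The regulators, 14 transcription factors, receptors and other nuclear proteins, were 3.85 times (3.37 to 4.41) higher in deep members, with 11 of 12 measured genes past 2-fold. Sox9 had 471 CPM in deep and 72.6 CPM in shallow members, a ratio of 6.49 (4.61 to 9.33), and was detected in 37 of 38 deep and 36 of 394 shallow members. Wt1, which maintains Sertoli identity, had 319 CPM in deep and 55.3 CPM in shallow members, a ratio of 5.77 (3.87 to 8.82). The exception was Rhox5, an androgen-regulated homeobox gene, with 186 CPM in deep and 137 CPM in shallow members and a ratio of 1.36 (0.968 to 1.91). Fshr, the receptor of follicle-stimulating hormone, had 6 UMIs in deep and 1 in shallow members, and Tcf21 had none in either.

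The secreted products, 22 genes, were 2.54 times (2.45 to 2.63) higher in deep members. Clu led both depths, at 7504 CPM in deep and 2525 CPM in shallow members, a ratio of 2.97 (2.79 to 3.17). Defb19, another beta-defensin gene, had 5554 CPM in deep and 2453 CPM in shallow members, and Ctsl had 3350 and 1483 CPM. Larger ratios were found for Shbg, which codes for the androgen-binding protein (62 UMIs in deep and 11 in shallow members), and for Kitl, the ligand of the KIT receptor of spermatogonia (88 and 20 UMIs), at 9.04 (4.72 to 19.0) and 7.06 (4.31 to 12.1). Eppin, a protease inhibitor gene, had a ratio of 1.32 (0.987 to 1.77) and Tsx of 1.54 (1.28 to 1.85). Inhba, Igfbp2, Fate1 and Timp1 were at 0 at both depths.

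The junction genes, 15 in number, were 4.29 times (3.92 to 4.69) higher in deep members. Espn, an actin bundler of the ectoplasmic specialization that grips the spermatid head, had 1747 CPM in deep and 209 CPM in shallow members, a ratio of 8.35 (6.87 to 10.2). Cldn11, the main claudin of the blood-testis barrier, had 557 CPM in deep and 181 CPM in shallow members, and Gja1, the gap junction protein connexin 43, had 438 and 133 CPM. Vim, the intermediate filament vimentin, had 618 CPM in deep and 145 CPM in shallow members. Cldn3, a claudin of the forming barrier, had 19 UMIs in deep and 25 in shallow members, with a ratio of 1.22 (0.635 to 2.31).

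**Figure D2:**
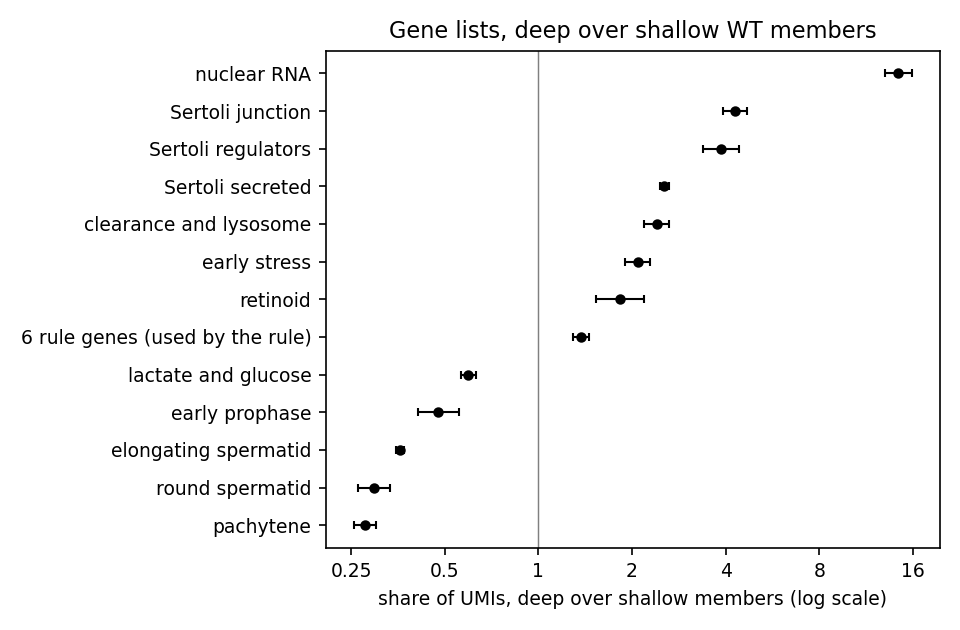
Share of summed UMIs in deep over shallow members (horizontal axis, log scale) for 13 gene lists; points are ratios and bars exact 95% intervals of counting error. The Sertoli lists lie between 2.54 and 4.29, the nuclear RNA list at 14.3, and the 4 germ cell lists in it under 1.

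Spermatid transcripts were found in every member, at different levels by depth. The 20 genes of the elongating spermatid list made up 1.68% (1.64% to 1.72%) of the UMIs of deep members and 4.68% (4.62% to 4.73%) of those of shallow members. The ratio was 0.359 (0.349 to 0.370), and 16 of the 20 genes were at least 2-fold lower in deep members, against 25.8% of all genes. Per barcode the deep members ranged from 0.457% to 17.1% with a median of 0.787%, and the shallow members from 2.11% to 16.7% with a median of 4.50%. At least 2% was found in 4 of 38 deep members and in all 394 shallow members. Without the 2 barcodes that stood apart, the other 36 deep members had 0.944% (0.912% to 0.978%), with a ratio to the shallow members of 0.202 (0.195 to 0.209), and all 20 genes were then at least 2-fold lower.

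Prm1 and Prm2, the protamines, had 1505 and 1531 UMIs in deep members and 6779 and 5537 UMIs in shallow members. On the CPM scale Prm1 had 4173 in deep and 11717 in shallow members, a ratio of 0.356 (0.337 to 0.377). Without the 2 barcodes that stood apart Prm1 had 770 UMIs and 2268 CPM in deep members, a ratio of 0.194 (0.179 to 0.209), and Prm2 had 711 UMIs and a ratio of 0.219 (0.202 to 0.237). Tnp1 and Tnp2, the transition proteins, had ratios of 0.314 (0.289 to 0.341) and 0.239 (0.217 to 0.262), which were 0.169 (0.151 to 0.189) and 0.144 (0.127 to 0.163) without the 2. Smcp, a protein of the sperm mitochondrial sheath, had 890 CPM in deep and 2601 CPM in shallow members, and 536 CPM in deep members without the 2. Fscn3, a testis fascin, had 13 UMIs and 36.0 CPM in deep and 23 UMIs and 39.8 CPM in shallow members. In the other 36 deep members Fscn3 had 6 UMIs and a ratio of 0.445 (0.148 to 1.12).

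Levels elsewhere in the WT library give the background to these shares. The elongating spermatid list made up 8.33% (8.32% to 8.34%) of the UMIs of the other deep and 7.01% (6.99% to 7.03%) of those of the other shallow WT barcodes. In 22 other WT barcodes chosen for Leydig, myeloid, stromal or endothelial genes, which should lack spermatid transcripts, it made up 1.36% (1.29% to 1.44%) at a median depth of 2654 UMIs. The deep members had a median depth of 9647.5 UMIs. All 38 together, at 1.68%, were above those 22 barcodes, and the 36 without the 2 that stood apart, at 0.944%, were below them. The shallow members, at 4.68%, were above them, but at a lower median depth of 1399.5 UMIs. The part of free RNA in these shares was not tested. After thinning to 1000 UMIs, Prm2 was detected in 65.8% of deep members and in 100% of shallow members, against 84.6% of other deep and 99.8% of other shallow barcodes.

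Against the other shallow barcodes, the shallow members did not have a lower median share of the 20 elongating spermatid genes. The sums gave a ratio of 0.667 (0.659 to 0.675), but the medians per barcode were 4.50% in shallow members and 4.43% in the other shallow barcodes. The means of the shares per barcode had a ratio of 0.766, and the sums after thinning to 1000 UMIs a ratio of 0.759. The sums differed in the upper range, since at least 10% was reached by 6 of 394 shallow members (1.52%) and by 354 of 3127 other shallow barcodes (11.3%). Of the 20 genes, 5 were at least 2-fold lower in shallow members, where 8.92% of all genes were. Prm2 had 9570 CPM in shallow members and 21028 CPM in the other shallow barcodes, a ratio of 0.455 (0.443 to 0.468), while Prm1 had 11717 and 13896 CPM, a ratio of 0.843 (0.822 to 0.864). Prm1 thus had 1.22 (1.18 to 1.27) UMIs per Prm2 UMI in shallow members, against 0.661 (0.655 to 0.667) in the other shallow barcodes and 1.17 over all 5407 WT barcodes. In deep members this was 0.983 (0.915 to 1.06), and 1.08 (0.977 to 1.20) without the 2 barcodes that stood apart. Ldhc, the lactate dehydrogenase of germ cells, had 3875 CPM in shallow members and 3857 CPM in the other shallow barcodes.

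**Figure D3:**
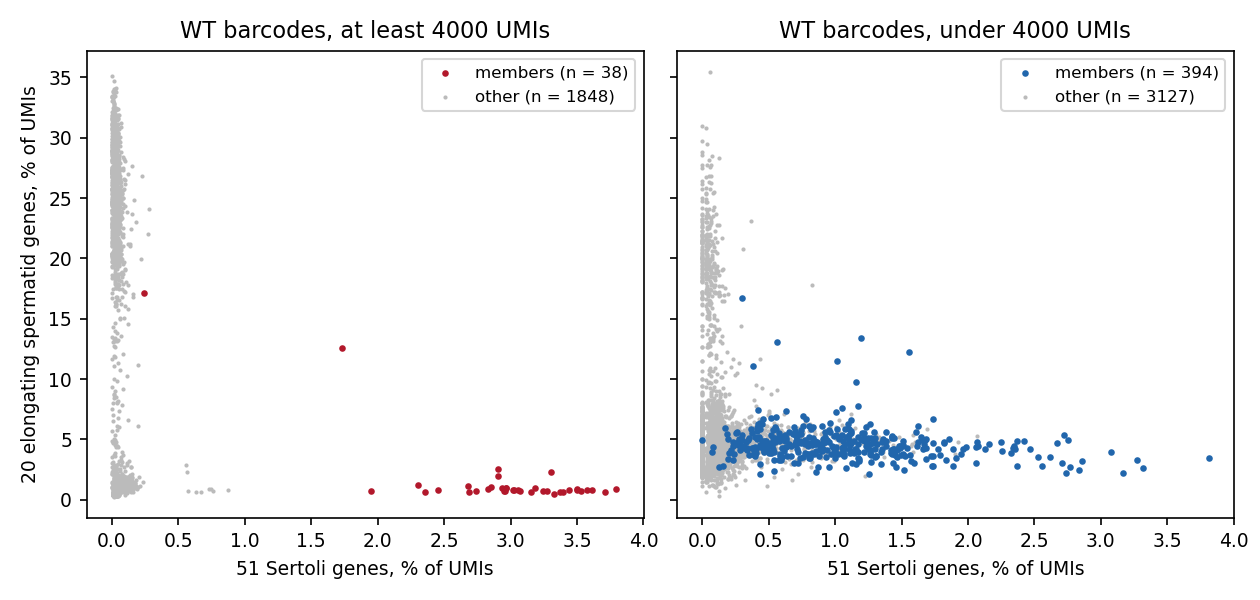
Elongating spermatid share (vertical axis, percent of UMIs) against the share of the 51 Sertoli genes (horizontal axis, percent of UMIs) for each WT barcode, deep at left and shallow at right, members coloured and other barcodes grey. Of 38 deep members 36 lie at or below 2.59% on the vertical axis, while the shallow members centre on 4.50%, close to the 4.43% median of the other shallow barcodes.

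Transcripts of earlier meiotic and round spermatid stages were also lower in deep members. The round spermatid list was at 0.0959% in deep and 0.324% in shallow members, a ratio of 0.297 (0.264 to 0.333), and the pachytene list at 0.186% and 0.672%, a ratio of 0.277 (0.255 to 0.301). Of their genes 19 of 20 and 13 of 15 were at least 2-fold lower in deep members, where 25.8% of all genes were. Without the 2 barcodes that stood apart these counts were 19 and 12. Ccnb2, a cyclin of division, had 3 UMIs in deep and 73 in shallow members. Mybl1, a pachytene transcription factor, was an exception, with 31 UMIs in deep and 28 in shallow members. The early prophase list had a ratio of 0.477 (0.409 to 0.554), with 3 of 7 measured genes at least 2-fold lower, against the same 25.8%. The spermatogonia list had a ratio of 1.03 (0.874 to 1.20), but its genes went opposite ways. Dmrtb1, a regulator of entry into meiosis, had 43 UMIs in deep and 256 in shallow members, a ratio of 0.269 (0.190 to 0.373). Its 442 CPM in shallow members lay between the 368 CPM of the other shallow and the 484 CPM of the other deep WT barcodes. Etv5 had a ratio of 3.68 (2.24 to 6.21), Id4 of 2.69 (1.65 to 4.47) and Uchl1 of 2.14 (1.59 to 2.89). Etv5 also stands on the list of Sertoli regulators. In the same order these genes had 153, 130 and 299 CPM in deep members. Deep KO barcodes passing the rule had 55.9, 117 and 307 CPM. Zbtb16, Sall4, Gfra1, Ret and Lin28a of the list had 0 UMIs in deep members. The pachytene list as a whole did not separate shallow members from other shallow barcodes, with a ratio of 1.02 (0.986 to 1.05). A broader set of 522 genes, with at least 100 CPM over the WT library and at most 2% of that level in the KO library, made up 5.65% of UMIs in deep members, 18.6% in shallow members and 24.1% in the other shallow barcodes. All 522 were lower in deep than in shallow members, with a median log2 ratio of -1.83. All 7861 genes measured had a median of 0.27 with quartiles of -1.06 and 1.34, and their share under 0 is not given here. For shallow members over the other shallow barcodes, the median log2 ratio of the 522 genes was -0.206, and that of all 14899 genes measured 0.0258.

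Among the shallow WT barcodes, the Sertoli share went up with the number of rule UMIs, from below to above the rule's limit. It was 0.0873% in 2163 barcodes with 0 rule UMIs, 0.15% in 720 with 1, 0.370% in 217 with 2 and 0.677% in 208 with 3 to 4. It was 0.920% with 5 to 6, 1.25% with 7 to 9 and 1.70% in the 52 barcodes with 10 or more. The elongating spermatid share over the same bins was 7.21%, 6.79%, 5.31%, 5.20%, 5.04%, 5.22% and 4.18%, and it stayed above the 1.57% of the 39 deep barcodes with 10 or more rule UMIs. Across the 394 shallow members the Sertoli and spermatid shares had a Pearson correlation of -0.21 and a Spearman correlation of -0.21. Across the 38 deep members these were -0.77 and -0.25, and across the 36 without the 2 that stood apart -0.083 and -0.12. Both shares of a barcode have the same total below them, and the barcodes come from 1 library.

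**Figure D4:**
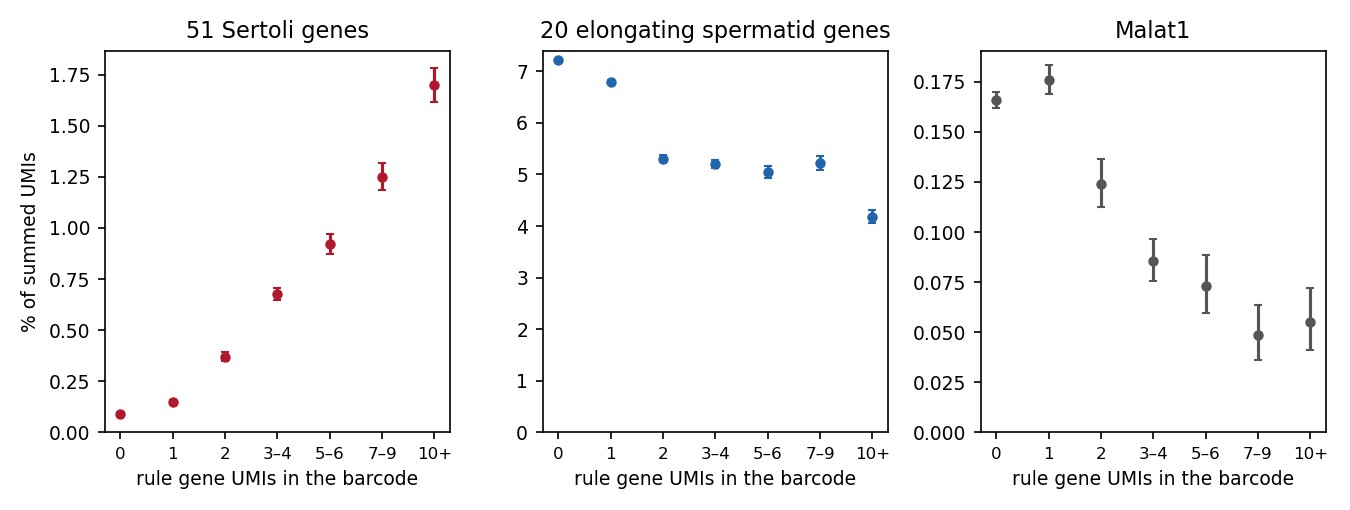
Summed share of the 51 Sertoli genes, the 20 elongating spermatid genes and Malat1 (vertical axes, percent of UMIs, each from 0) in shallow WT barcodes grouped by their rule gene UMIs (horizontal axis), with exact 95% intervals of counting error. The Sertoli share runs from 0.0873% to 1.70%, the spermatid share stays at 4.18% or above, and Malat1 lies between 0.0484% and 0.176%.

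Of the 20 lists, nuclear RNA had the largest ratio between depths, 14.3 (13.0 to 15.9). Malat1, a long noncoding RNA kept in the nucleus, had 3780 UMIs (10482 CPM) in deep and 388 UMIs (671 CPM) in shallow members, a ratio of 15.6 (14.1 to 17.4). The other shallow WT barcodes had 1651 CPM, so the shallow members were also lower than these, with a ratio of 0.406 (0.366 to 0.450). Neat1, another nuclear RNA, had 62 UMIs in deep and 8 in shallow members. Per barcode, the 5-gene nuclear RNA list reached 0.5% of UMIs in 35 of 38 deep and in 1 of 394 shallow members. Immediate early genes, short-lived transcripts of recent transcription, and other stress genes made up 1 list with a ratio of 2.08 (1.90 to 2.29). Of its 11 measured genes 8 were at least 2-fold higher in deep members, where 33.6% of all genes were, and all 8 are immediate early genes (Fos, Fosb, Jun, Junb, Jund, Egr1, Ier2 and Dusp1). Jun had 181 UMIs in deep and 13 in shallow members, a ratio of 22.3 (12.7 to 42.8), and Egr1 had 79 and 10. The shallow members had 22.5 CPM of Jun and 17.3 CPM of Egr1, and the other shallow WT barcodes 34.8 and 24.6 CPM. In KO barcodes passing the rule the order of depths was the other way. Jun had 658 CPM in deep and 1143 CPM in shallow KO barcodes, and Egr1 had 538 and 824 CPM. The other 3 were under 2-fold in either direction. Hspa5, the endoplasmic reticulum chaperone, had a ratio of 1.37 (1.20 to 1.56), Ddit3, a factor of the unfolded protein response, of 0.877 (0.564 to 1.34), and Dnajb1, a heat shock co-chaperone, of 0.577 (0.416 to 0.790) with 55 UMIs in deep and 153 in shallow members. Other genes high at deep depth were Pag1, a membrane adaptor, with 138 UMIs in deep and 7 in shallow members, and Syne1, a giant protein of the nuclear envelope, with 103 and 6. On the other side, Mak, a kinase of male germ cells, had 2 UMIs in deep and 74 in shallow members.

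A wider gene set was chosen without values of the members. A set of 377 genes with at least 100 CPM in the deep KO barcodes that pass the rule, and at most 2% of that level in the other deep WT barcodes, made up 11.8% of UMIs in deep members, 3.44% in shallow members, 0.116% in other deep and 0.480% in other shallow WT barcodes. The choice of the set capped the share in the other deep WT barcodes, so that value is no result. In deep over shallow members, all 7861 genes measured had a median log2 ratio of 0.27 with quartiles of -1.06 and 1.34. The share of all genes with a ratio above 1 is not given here. The set had a median log2 ratio of 2.03, a ratio of 4.08, and 376 of its 377 genes were above 1. The exception was Abracl, a gene chosen after its values were seen, with 22 UMIs in deep and 42 in shallow members. By RefSeq type, 352 protein-coding genes had a median ratio of 4.02 and 19 long noncoding RNAs a median ratio of 20.9; 11 of the 20 genes with the highest ratios were among these 19. Counts under 3 were set to 3 for these medians.

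Transcript length went with the ratio. Of the 377 genes, 354 (93.9%) had a transcript in a GENCODE annotation by symbol, and they were cut into 4 groups of near equal size by their longest transcript. The median ratio of deep over shallow members was 2.57 in the shortest group (386 to 1938 bases), 3.64 and 4.43 in the next, and 5.74 in the longest (4843 to 16716 bases). In the KO library the medians of deep over shallow barcodes passing the rule were 1.18, 1.56, 1.82 and 1.96 over the same groups. The Spearman correlation of length with the log2 ratio across genes was 0.52 in WT and 0.56 in KO, and the genes share their libraries. Of the genes named above, short transcripts belonged to Tsx (812), Rhox5 (754) and Eppin (778), and long ones to Espn (4618) and Sox9 (4135). By its longest annotated transcript, of 6168 bases, Ctsl went against this order, with a ratio of 2.26. Which annotated transcript was expressed was not tested. The part of RNA quality in this order was not tested.

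**Figure D5:**
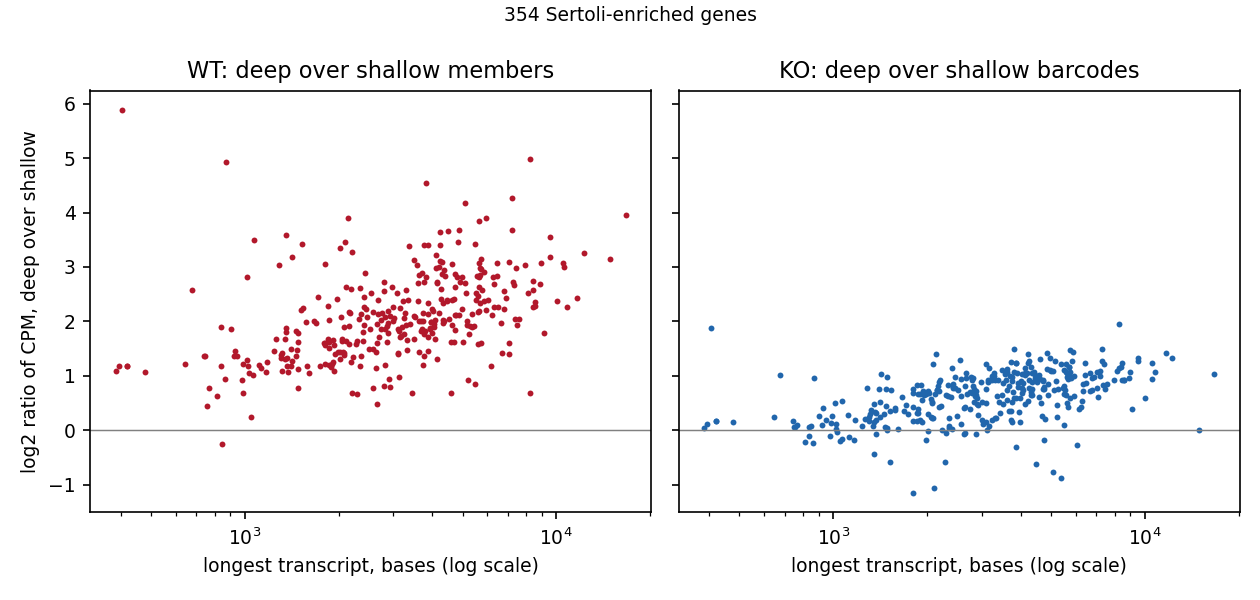
Log2 ratio of CPM in deep over shallow barcodes (vertical axis) against the longest annotated transcript (horizontal axis, bases, log scale) for 354 Sertoli-enriched genes, in WT members at left and in KO barcodes passing the same rule at right. Median ratios run from 2.57 to 5.74 over the length groups in WT and from 1.18 to 1.96 in KO.

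Genes for the care of germ cells were followed in 3 further lists. Receptors and lysosomal genes of dead cell clearance, 24 genes, were 2.40 times (2.19 to 2.63) higher in deep members, with 16 of 22 measured genes at least 2-fold higher, against 33.6% of all genes. Gas6, a bridge between dying cells and the receptor Mertk, had 388 CPM in deep and 77.8 CPM in shallow members, and Mertk itself 88.7 and 10.4 CPM. Map1lc3a, an autophagy protein, was on the other side with 161 CPM in deep and 320 CPM in shallow members, and 404 CPM in the other shallow barcodes. The 17 lactate and glucose genes had a ratio of 0.596 (0.563 to 0.630), with 5 of 13 measured genes at least 2-fold higher and 6 at least 2-fold lower in deep members, against 33.6% and 25.8% of all genes. Ldhb had 968 CPM in deep and 370 CPM in shallow members, and Slc16a1, a lactate transporter, 164 and 44.9 CPM. Ldhc, of germ cells, had 951 CPM in deep and 3875 CPM in shallow members. Ldhc, Pgk2 and Gapdhs also stand on the germ cell lists above, so the ratio of this list is not one of Sertoli genes alone. The retinoid list had a ratio of 1.83 (1.53 to 2.18). Of its 7 genes measured, 4 were at least 2-fold higher in deep members, among them Aldh1a1, a retinoic acid synthase, at 316 and 126 CPM in deep and shallow members, and 1, Rdh11, was lower at 41.6 and 89.9 CPM. The shares of all genes were again 33.6% and 25.8%.

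Markers of other somatic cells were mostly at or near 0 in the members. The Leydig genes Insl3, Cyp17a1 and Lhcgr had no UMI in deep or shallow members, and 4 of the 10 Leydig genes were at 0 in deep members, with the list at 0.0161% in deep and 0.0137% in shallow members. Of 12 myeloid genes 8 were at 0 in both, Lyz2, Csf1r and Adgre1 included. The myeloid sum of 174 UMIs in deep members came mainly from Mrc1, the mannose receptor, with 128 UMIs in deep and 47 in shallow members. The erythroid sum came only from Alas2, with 60 UMIs in deep and 33 in shallow members, while the globins were at 0. The endothelial list had 5 UMIs in deep and 6 in shallow members, and the stromal list 17 and 15. The myoid list had a ratio of 0.977 (0.736 to 1.29) between deep and shallow members, but its main genes went opposite ways. Myl9 had 66 UMIs in deep and 48 in shallow members, a ratio of 2.21 (1.498 to 3.27). Actg2 had 15 UMIs in deep and 84 in shallow members, a ratio of 0.286 (0.154 to 0.4999). Actg2 was not particular to the shallow members, with 145 CPM there, 153 CPM in the other shallow and 174 CPM in the other deep WT barcodes. The deep KO barcodes passing the rule had 0 UMIs of Actg2. Myl9 had 183 CPM in deep members and 175 CPM in those deep KO barcodes. Every other gene of the myoid list had at most 4 UMIs at either depth. The part of other cells in the results was not tested.

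Among the 36 deep members without the 2 that stood apart, the main Sertoli genes varied to different degrees. Clu had a median of 76.1 UMIs per 10000 (38.3 to 129 from lowest to highest), with a coefficient of variation of 28.5%, and Defb19 had a coefficient of 33.3%. Cst12 had a median of 23.5 (10.8 to 44.6). Ctsl ran from 14.5 to 89.6 per 10000, with a coefficient of 46.2%, and Inha and Sox9 had coefficients of 50.5% and 51.6%. Espn ran from 0 to 35.5 per 10000 with a median of 20.6 and a coefficient of 60.9%. Aqp8, a water channel gene chosen after its values were seen, was detected in 10 of the 36 barcodes and reached 9.36 per 10000, and Rhox5 was detected in 17 of 36. These spreads are between barcodes of 1 library and include counting error.

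The deep members were set against 1141 deep KO barcodes that pass the same rule, with 4008 to 25285 UMIs and a median of 7109. The rule took 0.703% (0.498% to 0.963%) of the kept WT barcodes at deep depth, and 17.8% (16.9% to 18.8%) of the kept KO barcodes. The 51 Sertoli genes made up 2.96% in deep WT members and 3.07% (3.06% to 3.08%) in deep KO barcodes, a ratio of 0.962 (0.943 to 0.981). Without the 2 members that stood apart the ratio was 0.993 (0.973 to 1.01). The direction turned after thinning to 1000 UMIs, at 1.02, and with 10% of the library profile taken off as free RNA, at 1.01. Of 49 genes measured, 4 were at least 2-fold higher and 5 at least 2-fold lower in deep WT members, where 20.7% and 6.81% of all 13252 genes were. Counts under 3 were set to 3 for this, so genes near 0 in deep WT members could pass as higher. Cldn5 had 1 UMI there and a ratio of 1.24 (0.0299 to 7.74), but 3.72 with that floor. Tcf21, with 0 UMIs there and 49 in deep KO barcodes, was at 1.52 with it. Without the floor and the 2 members, 3 of 49 genes were at least 2-fold higher and 8 lower. Wt1 had 319 CPM in deep WT members and 308 CPM in deep KO barcodes, and Gja1 had 438 and 464 CPM. At shallow depth the list was further apart, at 1.05% in shallow WT members and 2.17% (2.15% to 2.19%) in shallow KO barcodes, a ratio of 0.487 (0.474 to 0.4997). These groups also differed in myeloid and erythroid genes. C1qa, Csf1r and Hbb-bs had 209, 118 and 650 CPM in shallow KO barcodes and 0 UMIs in shallow WT members. Apoe had 1718 CPM in shallow KO barcodes and 32.8 CPM in shallow WT members. The part of other cells in this ratio was not tested. Of 48 genes measured there, 1 was at least 2-fold higher and 34 at least 2-fold lower in shallow WT members, where 20.5% and 42.9% of all genes were. Malat1 had 671 CPM in shallow WT members and 14474 CPM in shallow KO barcodes, and the nuclear RNA list was at 0.0757% in shallow WT members and 1.52% in shallow KO barcodes. Rad21l itself, the deleted gene, had 0 UMIs in deep and 1 in shallow WT members, and 3 in deep and 2 in shallow KO barcodes, so these barcodes hold no check of the genotype.

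Single genes differed between the deep WT members and the deep KO barcodes. Gas6 had 388 CPM in deep WT members and 95.04 CPM in deep KO barcodes, a ratio of 4.08 (3.39 to 4.89). Espn had 1747 and 1033 CPM, a ratio of 1.69 (1.56 to 1.83), and Alas2 166 and 19.6 CPM, a ratio of 8.49 (6.23 to 11.4). Other genes were lower in deep WT members. Pappa, a protease of IGF-binding proteins, had 0 UMIs in deep WT members and 960 UMIs (107 CPM) in deep KO barcodes, and was at 6.099 CPM in the other deep KO barcodes. Aplp1, a relative of the amyloid precursor, had 1 UMI in deep WT members, 164 CPM in deep KO barcodes and 20.7 CPM in the other deep KO barcodes. Timp1, a metalloprotease inhibitor, had 0 UMIs in deep WT members and 828 UMIs in deep KO barcodes. Lcn2 and Cyp17a1 also had 0 UMIs in deep WT members, with 287 and 144 CPM in deep KO barcodes, but were at 3632 and 2582 CPM in the other deep KO barcodes, so free RNA and expression cannot be told apart for them here. The elongating spermatid list was at 1.68% in deep WT members and 0.00871% in deep KO barcodes, where 720 of the 778 UMIs came from Odf2. Without the 2 members that stood apart it was at 0.944% in deep WT members. Tnp2 and Smcp, with 507 and 321 UMIs in deep WT members and 288 and 182 without the 2, had none in the deep KO barcodes.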

How the data were processed

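Per the submitters' processing notes, the authors used Cell Ranger 6.1.2, Seurat 4.3 and build GRCm39; how barcodes were called is not given in the sources used here. The values deposited by the authors are raw counts of UMIs for 41459 gene symbols in each barcode. Barcodes with at least 500 detected genes were kept, UMIs were summed per group of barcodes and scaled to CPM, and no doublets were removed. Ratios per gene needed at least 20 UMIs in both sums together. Counts under 3 were set to 3 when genes past 2-fold were counted, except in counts without the 2 deep members that stood apart. Named genes were the rule genes, genes of the 20 lists, and the first 12 per direction by ratio with at least 50 UMIs in the higher group; others are marked. The members and lists were chosen with earlier results of these data known, and 6 genes stand on 2 lists. The code was first run on simulated counts with known answers. Alternatives changed the rule, split, depth, totals and free RNA. Transcript lengths came from GENCODE vM21 and gene types and promoters from RefSeq. Python 3.11.15, NumPy 2.4.6, SciPy 1.17.1 and pandas 2.3.3 were used. Some genes of the lists are not reported here by name.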

Additional observations from a re-analysis of the deposited data

How the results depend on the processing

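Of 80 values under alternatives, 44 stayed close to the main value (within its interval, or near it for numbers of barcodes), 34 moved and 2 turned direction; the cause was not tested. Both that turned are the Sertoli list in deep WT members over deep KO barcodes, 0.962 as reported, which was 1.02 after thinning to 1000 UMIs and 1.01 with 10% of the library profile taken off as free RNA. That ratio was 0.913 at a rule share of 0.10% and 0.993 without the 2 deep members rich in spermatid transcripts, an alternative chosen after seeing the data. The number of deep members was 36 to 42 throughout. The number of shallow members was 251 at a share of 0.30%, 212 with at least 5 rule UMIs and 181 with at least 1000 genes. The Sertoli ratio of deep over shallow members was 2.71 at 0.10%, 2.48 at 0.30%, 2.37 with 5 rule UMIs, 2.64 with 1000 genes and 2.93 after thinning. The elongating spermatid ratio of deep over shallow members was 0.474 at 0.10%, 0.205 at 0.30%, 0.407 with a split at 3000 UMIs, 0.317 with a split at 5000 UMIs, 0.322 without Wfdc10 in the rule, 0.349 after thinning, 0.228 with free RNA taken off and 0.202 without the 2 deep members. The Sertoli ratio of shallow members over other shallow WT barcodes was 8.46 at 0.10%, 7.91 and 9.85 with splits at 3000 and 5000 UMIs, 12.3 with 1000 genes, 7.64 after thinning, 7.29 as a mean over barcodes and 9.45 with free RNA taken off. The elongating spermatid ratio of shallow members over other shallow WT barcodes was 0.686 at 0.10%, 0.677 with 5 rule UMIs, 0.845 and 0.534 with splits at 3000 and 5000 UMIs, 0.637 with 1000 genes, 0.608 with protamine and transition protein UMIs left out of the totals, 0.759 after thinning, 0.766 as a mean over barcodes and 0.624 with free RNA taken off. No paired analysis was possible because each genotype has 1 library. Shallow members held few UMIs each, and genes with few UMIs have wide intervals.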
